A study of Mus musculus with 48 samples.

Results

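C2C12 myoblasts stretched for 6 h were compared with C2C12 myoblasts stretched for 1 h, to ask how the early state of stretched cells differs from the late one. The comparison rests on 8 of the 48 libraries of the series, 4 of each duration, all of the columns that the labels give to stretched myoblasts at these times. C2C12 is an established mouse line of muscle precursor cells that stay undifferentiated in growth medium. The cells grew on flexible collagen-coated plates in serum-containing medium, and a Flexcell device stretched the membrane cyclically and equally in all directions until the RNA was taken. Libraries of mRNA were made by a stranded method. The labels name the molecule as nuclear RNA, while the methods describe extraction from washed cells without a step that isolates nuclei, which bears on nuclear transcripts such as Neat1 and Malat1. Non-stretched myoblasts on the same plates, 4 at each duration, give the change over the same hours without stretching, and 4 stretched libraries at 3 h lie in between. In each group replicates 7 and 8 came from experiment B27 and replicates 9 and 10 from experiment B31. The model is 1 immortal line without fibres or nerve, and per the methods the 4 libraries of a group are separate samples from 2 independent experiments. Whether samples of 1 experiment were separate cultures is not stated, so p-values measure the spread between these libraries, part of which may be technical. Values of single libraries are given in the order of replicates 7, 8, 9 and 10.

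Cells that are pulled on their support pass the force through integrins and the actin cytoskeleton to kinases such as ERK and to the transcription regulators SRF and YAP. Immediate early genes (Fos, Egr1) are transcribed within minutes of such a stimulus from factors already present, and their mRNAs decay quickly. The unfolded protein response acts later: when unfolded proteins gather in the endoplasmic reticulum (ER), the factors ATF6 and XBP1 raise the genes of ER chaperones and of proteins that remove misfolded ones. Sterol synthesis genes are driven by SREBP2 when cholesterol in the ER membrane is low.

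Genes that fell from 1 h to 6 h of stretching included Fosb, Fos, Egr1, Ctgf, Edn1, Ppp1r15a and Nr4a1, and genes that rose included Plin4, Neat1, Rsrp1, Ngfr, Zfp866 and many genes of sterol synthesis and ER protein folding. Expression is given as CPM, the count of a gene relative to the size of its library after TMM scaling over the 24 myoblast libraries, and as mean ± SD of 4 libraries where 1 value is given. Of 14909 genes tested, 594 were upregulated (3.98%) and 236 were downregulated (1.58%) at 6 h, together 5.57%, by edgeR's quasi-likelihood test with the experiment as a block. A gene was called when its Benjamini-Hochberg adjusted p was under 0.05 and its log2 fold change reached 0.58 upward or -0.58 downward. Counts of called members of gene lists are to be read against these shares of all genes tested. Among the called genes 164 rose and 68 fell by at least 1 on the log2 scale. The median log2 fold change over all genes tested was -0.01. In such bulk RNA fewer cells of a kind and less RNA per cell cannot be told apart. Without a fold-change limit 3055 genes rose and 2667 fell, so most of the changes were small, and 53.4% of them were rises, against 71.6% of the calls. Against the limit itself, tested with glmTreat, 116 genes rose and 36 fell. Within experiments B27 and B31 the median log2 differences were 0.60 and 0.63 for the 594 upregulated genes and -0.54 and -0.56 for the 236 downregulated genes, as a description, since the calls used both experiments.

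Few genes changed without stretching. In non-stretched myoblasts, 6 genes rose (0.0401%) and 20 fell (0.134%) between 1 h and 6 h, 0.174% of 14970 genes tested, and 356 passed the adjusted p without the fold-change limit. The 4 libraries of 6 h lay all above those of 1 h in 4.94% and all below in 3.73% of the genes tested. The 594 genes upregulated in stretched cells had a median log2 fold change of 0.82 there and of 0.10 in non-stretched cells, and 1 of them, Gpnmb, was also upregulated without stretching. The medians of the 236 downregulated genes were -0.80 and -0.21, and 7 of them also fell without stretching, among them Ctgf, Acta1 and Txnip. The difference between the 2 changes, stretched minus non-stretched, was tested as an interaction over the 16 libraries. It was positive for 363 genes (2.35%) and negative for 98 (0.634%), 2.98% of 15455 genes tested. Of the 363, 314 were also called up in stretched cells, and of the 98, 76 were also called down. These are 52.9% of the 594 upregulated and 32.2% of the 236 downregulated genes. For the remaining calls of stretched cells the difference to the change without stretching was not called. The interaction test shares the libraries of both comparisons. The plot of the 2 changes shows the genes called in stretched cells spread along the axis of stretched cells and close to 0 on the other.

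**Figure D1:**
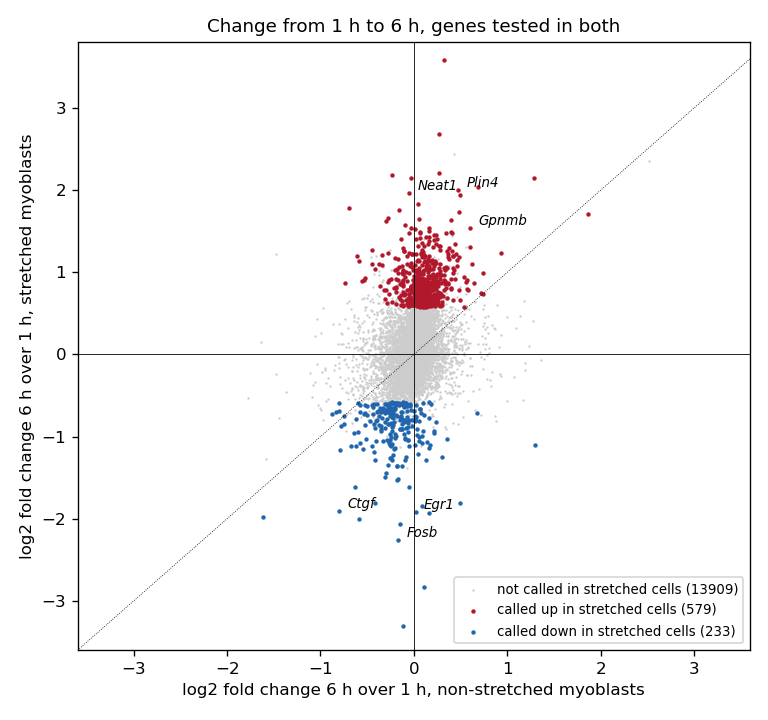
Log2 fold change from 1 h to 6 h in non-stretched myoblasts (x axis) and in stretched myoblasts (y axis) for the 14721 genes tested in both; each point is a gene, red and blue points are the 579 upregulated and 233 downregulated genes of stretched cells, and the dotted line marks equal change. The coloured points lie high or low on the y axis, with medians of 0.82 and -0.80, and near 0 on the x axis, with medians of 0.10 and -0.21.

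The 8 stretched libraries held between 50998523 and 66016083 counts. The summed level of 6 myoblast markers was 1380 to 1490 CPM at 1 h and 1370 to 1460 CPM at 6 h, that of 4 markers of differentiated muscle cells 1.62 to 2.63 and 1.51 to 2.10 CPM. Of the markers of other cells, 3 of macrophages summed to 1.12 to 1.32 and 1.17 to 1.41 CPM with Adgre1 at 0 in all 8 libraries, 3 of endothelial cells to 0.269 to 0.527 and 0.524 to 0.819 CPM, and 3 of adipocytes to 0.0301 to 0.147 and 0.0486 to 0.192 CPM with Adipoq at 0 at 1 h. The endothelial marker Kdr, with a mean of 19.5 counts, was itself called up (1.64). The markers Mymk and Mymx were not analysed here. Replicate 7 at 1 h stood apart: it had the fewest counts, and 2 ribosomal RNA symbols took 6.84% of them, against 0.94% to 2.36% in the other 7 libraries. Without it 559 genes rose and 238 fell.

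The ER stress response element, CCAAT followed after 9 bases by CCACG, is the sequence through which ATF6 acts on ER chaperone genes, and it was searched on both strands of the RefSeq promoters (GRCm38.p6, 250 bases before to 50 after each start; 66.8% of the tested genes have an entry). Of the 20 genes of the ER list with a promoter, 8 held the element (40.0%), against 16 of 9952 tested genes (0.161%) and 37 of all 27025 promoters (0.137%). Of these 8, Hspa5, Creld2, Dnajc3 and Syvn1 were upregulated and Calr, Canx, Hsp90b1 and Pdia6 were not. The 160 bases before the RefSeq start of the 4 upregulated genes are shown 5′ to 3′ on the strand of the gene, here the plus strand for all 4, with the element in capitals, so that its place and direction can be compared. They lie at chr2:34771930-34772089, chr15:88819486-88819645, chr14:118937772-118937931 and chr19:6046416-6046575.
Hspa5: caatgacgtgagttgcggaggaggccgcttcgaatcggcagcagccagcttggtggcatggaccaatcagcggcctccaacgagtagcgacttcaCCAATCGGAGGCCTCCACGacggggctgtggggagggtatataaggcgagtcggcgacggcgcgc
Creld2: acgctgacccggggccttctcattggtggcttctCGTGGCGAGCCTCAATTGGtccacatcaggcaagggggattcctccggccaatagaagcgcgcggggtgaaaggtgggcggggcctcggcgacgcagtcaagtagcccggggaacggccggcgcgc
Dnajc3: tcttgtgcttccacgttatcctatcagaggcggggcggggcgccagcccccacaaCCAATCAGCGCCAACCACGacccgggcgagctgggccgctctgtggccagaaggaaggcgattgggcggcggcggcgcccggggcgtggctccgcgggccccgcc
Syvn1: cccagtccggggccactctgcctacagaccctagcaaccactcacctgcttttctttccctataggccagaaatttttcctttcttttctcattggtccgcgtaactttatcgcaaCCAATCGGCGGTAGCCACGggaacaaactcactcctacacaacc
The element begins 65 bases before the RefSeq start of Hspa5, 126 before that of Creld2, 105 before that of Dnajc3 and 44 before that of Syvn1, and in Creld2 it lies on the opposite strand. The GENCODE record of Hspa5 begins further upstream, inside the printed bases, so the Hspa5 element lies within that record. A match is a description of the letters and no measure of binding. The ER list was picked for the known function of its genes, so its share follows in part from that choice. Of all upregulated genes with a promoter, 5 of 367 held the ER element (1.36%), and of the downregulated genes 0 of 138. Of the downregulated genes with a promoter, 18 of 138 held the AP-1 letters TGACTCA (13%), and of the upregulated genes 28 of 367 (7.63%), against 4.68% of tested genes and 5.95% of all promoters. The cyclic AMP response element TGACGTCA was in 4 of the 138 downregulated genes (2.90%; 3.61% of tested genes and 2.03% of all promoters). CArG boxes, the letters through which SRF acts, were in 10 of 19 promoters of the SRF list (52.6%; 1.64% of tested genes and 1.81% of all promoters). That list was picked as targets of SRF, so its share also follows in part from the choice. Of all downregulated genes with a promoter, 4 of 138 held a CArG box (2.90%), and of the upregulated genes 3 of 367 (0.817%).

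Of 25 immediate early transcription factors tested, 8 were downregulated and 1 was upregulated, with a median log2 fold change of -0.28, and in non-stretched cells none of the 25 passed edgeR's test (median -0.05; 8 at an unadjusted p under 0.05, which 16.3% of all genes tested there reached). Egr1, a zinc finger factor, was at 290, 295, 282 and 303 CPM at 1 h and at 79.3, 86.4, 69.8 and 73.6 CPM at 6 h. Every library at 6 h lay far below every library at 1 h, a log2 fold change of -1.92 (SE 0.0520, edgeR adjusted p 7.38e-08). Non-stretched cells were at 111 ± 3.29 CPM at 1 h and 113 ± 6.27 CPM at 6 h (SD, n = 4), and all 4 stretched libraries at 6 h lay lower than these means.

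Fos and Fosb, which pair with Jun proteins to form AP-1, fell by 1.93 and 2.27 on the log2 scale (edgeR adjusted p 2.23e-06 and 5.09e-07). The level of Fosb was 7.73, 8.04, 11.6 and 9.52 CPM at 1 h and at 1.64, 1.89, 1.96 and 2.12 CPM at 6 h, and Fos (chr12:85473890-85477273) went from between 5.92 and 7.62 CPM to between 1.49 and 2.01 CPM. In both genes the groups did not overlap, as for 17.7% of all genes tested in this direction, and the libraries at 6 h were close to non-stretched cells (1.93 ± 0.0691 CPM for Fosb, 1.68 ± 0.173 CPM for Fos at 6 h). The nuclear receptor Nr4a1 (-1.12), the stress protein Ier3 (-0.91), the factors Csrnp1 (-0.84), Ier2 (-0.80) and Egr2 (-0.79) also fell. Nr4a3, a relative of Nr4a1, went the other way, from 0.642, 0.374, 0.406 and 0.522 CPM to 1.1, 0.960, 1.49 and 0.891 CPM (log2 fold change 1.22, SE 0.232, edgeR adjusted p 0.00269), at a low level. Jun, a partner of Fos, had a log2 fold change of 0.10 and was not called.

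Among the genes through which ERK signalling restrains itself, 1 of 16 was downregulated and none was upregulated (median -0.19), 6.25% against 5.57% of all genes tested. In 10 of the 16 the libraries at 6 h all lay below those at 1 h (17.7% of all genes tested), and in 3 all above (18.9%). At an unadjusted p under 0.05 in edgeR's test there were 11 negative and 3 positive values, 14 of 16, against 47.5% of all genes tested. The called gene was Dusp1, a phosphatase of MAP kinases, at 92.1, 90.0, 94.2 and 91.9 CPM at 1 h and 43.4, 45.6, 46.8 and 42.9 CPM at 6 h. The groups were tight and apart, with a log2 fold change of -1.04 (SE 0.0348, edgeR adjusted p 1.85e-07), and the level at 6 h was close to the 44.6 CPM of non-stretched cells. Dusp6, a phosphatase of ERK, had a log2 fold change of -0.48, under the limit. Of the EGF family 2 of 7 tested genes fell, the ligands Areg and Hbegf (both -0.70), and their relative Ereg had a value of -0.39 and was not called. In the interaction no EGF family gene was called by edgeR or DESeq2 (4 of 8 at an unadjusted p under 0.05), and the differences of Areg and Hbegf were both -0.57 (edgeR adjusted p 1.25e-06 and 4.39e-06), just under the fold-change limit. Ppp1r15a, which directs a phosphatase to the translation factor eIF2α, fell from between 47.8 and 52.3 CPM to between 20.9 and 23.8 CPM (-1.16), and Btg2, which promotes mRNA decay, was the 1 of 9 decay factors called (-0.59).

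Targets of YAP and of SRF fell in part. Of 17 YAP target genes tested 3 were downregulated and none was upregulated (median -0.04). Ctgf, a secreted matrix protein also named Ccn2 (chr10:24595442-24598683), was at 67.6, 69.6, 70.3 and 65.8 CPM at 1 h and at 14.5, 18.6, 19.8 and 19.7 CPM at 6 h. It fell by 1.91 on the log2 scale (SE 0.0769, edgeR adjusted p 5.02e-07), with every library at 6 h below those at 1 h, and it also fell in non-stretched cells, by 0.80. The difference between these changes passed the test (-1.1, SE 0.137, edgeR adjusted p 3.69e-05). The muscle ankyrin repeat protein Ankrd1, at 698, 667, 707 and 723 CPM at 1 h and 340, 385, 346 and 417 CPM at 6 h, fell by 0.90. Cyr61, the matrix protein Ccn1, fell by 0.82 from between 333 and 361 CPM to between 191 and 201 CPM, while its change in non-stretched cells was 0.24. At 6 h every stretched library was below the non-stretched means of 471 CPM for Ankrd1 and 234 CPM for Cyr61.

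SRF target genes of the actin cytoskeleton showed another pattern. Of 24 tested, 4 were downregulated (median -0.17), the muscle actins Acta1 (-0.69) and Actc1 (-0.78), the actin-binding calponin Cnn1 (-0.73) and transgelin Tagln (-0.65). Tagln was at 95.0, 95.2, 90.9 and 95.7 CPM at 1 h and at 56.6, 60.5, 62.4 and 59.1 CPM at 6 h. These 4 genes also had negative changes without stretching, between -0.37 and -0.80, and none of the 24 was called in the interaction by edgeR or DESeq2 (10 at an unadjusted p under 0.05, reached by 31.7% of all genes tested there). The difference was 0.10 for Acta1 (SE 0.165, edgeR adjusted p 0.724) and -0.29 for Tagln (SE 0.0763, edgeR adjusted p 0.0125), the latter under the fold-change limit.

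**Figure D2:**
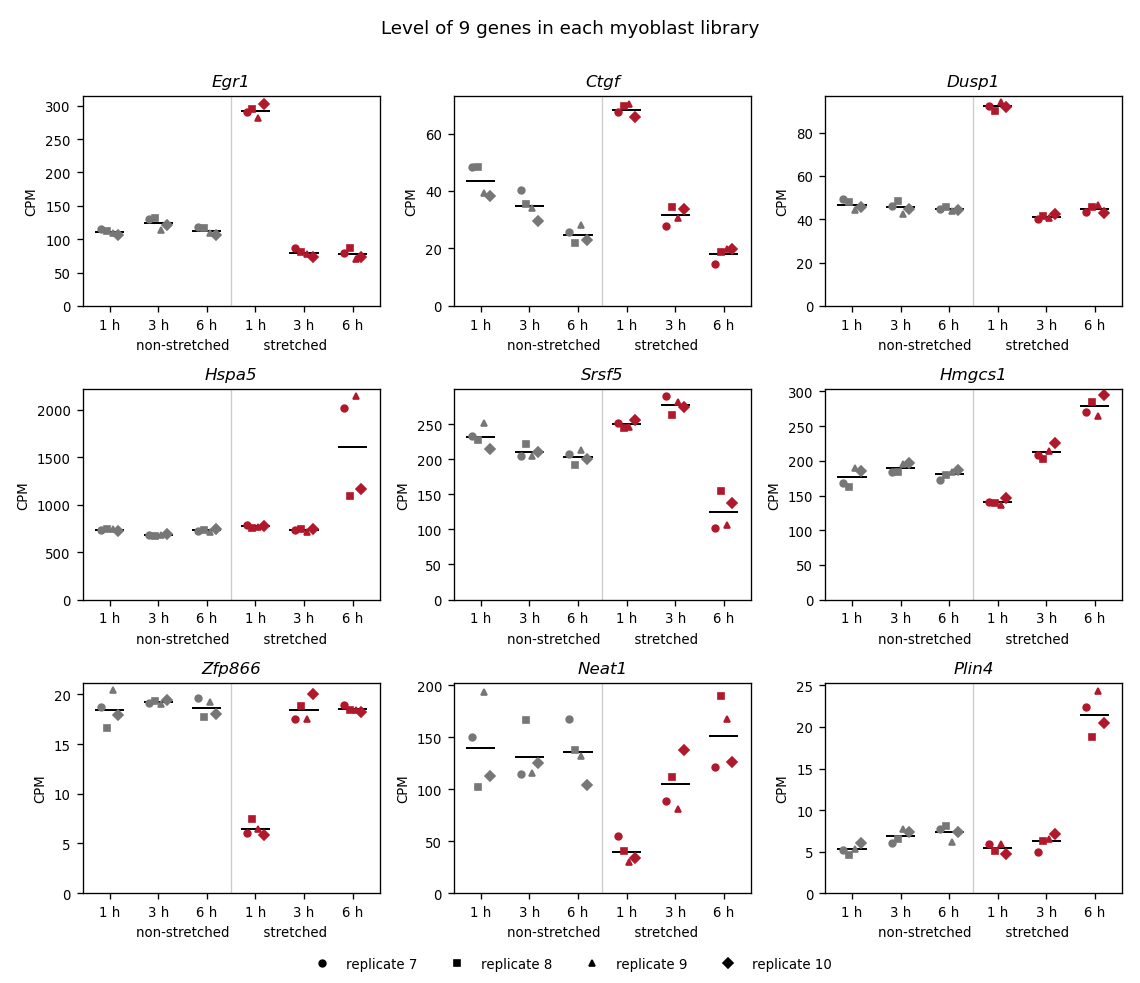
CPM of 9 genes (y axis, from 0) in each of the 24 myoblast libraries, by group (x axis: 1 h, 3 h and 6 h, non-stretched in grey and stretched in red); symbols mark the replicate and bars the mean of 4. Egr1, Ctgf and Dusp1 are highest in stretched cells at 1 h, Hspa5 and Plin4 rise at 6 h with Hspa5 replicates 7 and 9 near 2020 and 2140 CPM, and Zfp866 is low only in stretched cells at 1 h.

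Of 25 genes of ER protein folding and degradation tested, 11 were upregulated, against 3.98% of all genes tested, and none was downregulated. Their median log2 fold change was 0.53. In the interaction 10 of the 25 were called, against 2.98% of all genes tested. In non-stretched cells edgeR called none (median -0.01), and 3 had an unadjusted p under 0.05, against 16.3% of all genes tested there. In 22 of the 25 the libraries at 6 h lay above all those at 1 h, as for 18.9% of all genes tested. Hspa5, the ER chaperone BiP (chr2:34771970-34777547), was at 786, 759, 767 and 772 CPM at 1 h and at 2020, 1090, 2140 and 1160 CPM at 6 h. All 4 libraries at 6 h were above those at 1 h, but they formed 2 levels, replicates 7 and 9 high and replicates 8 and 10 lower. The log2 fold change was 1.06 (SE 0.203, edgeR adjusted p 0.00273).

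Sdf2l1 and Herpud1 showed the same 2 levels. Sdf2l1, a partner of BiP, went from 18.2, 18.1, 16.8 and 18 CPM to 61.5, 26.7, 70.9 and 27.8 CPM (1.40, SE 0.307, edgeR adjusted p 0.00548). Herpud1, which takes part in ER-associated degradation, went from 47.2, 45.1, 56.7 and 51.8 CPM to 149, 87.9, 162 and 95.3 CPM (1.31). In each of the 2 genes replicates 7 and 9 were the highest at 6 h, and they come from different experiments. Also upregulated were the ubiquitin ligase Syvn1 (1.05), the chaperone Creld2 (1.03), the cochaperones Dnajb9 (0.87) and Dnajc3 (0.81) and the chaperone Hyou1 (0.84). Hsp90b1 and Calr, abundant chaperones of the ER lumen, each had a log2 fold change of 0.53, under the limit.

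The median level of the 25 genes relative to non-stretched cells at 1 h was 0.75, 0.24, 0.78 and 0.24 on the log2 scale in the 4 libraries at 6 h, and 0.01 to 0.04 in those at 1 h. Replicates 7 and 9 were also the deeper libraries at 6 h, with 62133864 and 61652151 counts against 57523220 and 58132169 in replicates 8 and 10. The ribosomal RNA symbols took 1.25%, 2.15%, 1.17% and 0.94% of the 4 libraries and did not follow this split. Between 8 and 14 of the 25 genes were upregulated when each library was left out in turn, with 9 and 8 without replicate 7 or 9 at 6 h and 14 without replicate 8 or 10. The part of depth in the result was not tested.

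Heat shock chaperone genes followed the same libraries. Of 18 tested 3 were upregulated and none fell (median 0.29). The inducible chaperone Hspa1b was at 116, 113, 104 and 101 CPM at 1 h and at 398, 189, 406 and 168 CPM at 6 h (1.43, SE 0.273, edgeR adjusted p 0.00269). All libraries at 6 h were above those at 1 h, replicates 7 and 9 the most. Hsph1, which exchanges nucleotide on Hsp70 proteins, rose by 1.03, and Hspa1a by 0.60. Because 68.0% of the 31-base words in Hspa1b and 65.4% of those in Hspa1a are shared with other genes, the division of reads between them is uncertain, and Hspa1a was not called without replicate 7 or 9 at 6 h (0.52 and 0.48). The number of heat shock genes called was 2 without replicate 7 or 9 and 5 without replicate 8 or 10. Hspa8, the constitutive member, had a log2 fold change of 0.33 and was not called.

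The factor ATF4 raises genes of amino acid synthesis and transport under stress, and of 25 of its targets tested 2 rose and 1 fell (median -0.18). Ddit3, the factor CHOP, rose from 10.9, 10.9, 13.4 and 10.7 CPM to 31.5, 22.6, 36.4 and 24.0 CPM (1.32, SE 0.144, edgeR adjusted p 0.000116), and Ddit4, an inhibitor of mTORC1, by 0.68. For Ddit3 replicates 7 and 9 were the highest at 6 h, as for the ER genes. The median level of the 25 targets, relative to non-stretched cells at 1 h, was 0.03, -0.17, 0.10 and -0.05 in the libraries at 6 h. Slc7a5, a transporter of large amino acids, fell by 0.59 and was not called without replicate 7 at 6 h (-0.56).

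Sterol genes rose evenly across libraries. Of 24 tested 17 were upregulated, against 3.98% of all genes tested, and none was downregulated (median 0.66). In all 24 the libraries at 6 h lay above those at 1 h, as for 18.9% of all genes tested. Hmgcs1, the synthase that makes HMG-CoA (chr13:119690379-119708260), was at 140, 139, 137 and 146 CPM at 1 h and at 270, 285, 264 and 295 CPM at 6 h. The groups were tight and apart, without the 2 levels of the ER genes (0.99, SE 0.0410, edgeR adjusted p 5.09e-07).

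Further along the pathway, the mevalonate diphosphate decarboxylase Mvd went from 13.2, 11.1, 13.7 and 14.4 CPM to 36.5, 30.9, 38.3 and 30.1 CPM (1.38, SE 0.0924, edgeR adjusted p 7.08e-06). The isomerase Idi1 (0.93) and the later enzymes Cyp51 (0.79), Msmo1 (0.97) and Sc5d (0.81) rose, as did the sterol carrier Stard4 (0.83) and the ER anchor Insig1 (0.80). Srebf2, which encodes SREBP2, had a log2 fold change of 0.18, under the limit. In non-stretched cells none of the 24 was called by edgeR (median 0.09). There 13 had an unadjusted p under 0.05, all with positive values, against 16.3% of all genes tested. In the interaction 13 were called (median 0.59), against 2.98% of all genes tested. The median level of the list, relative to non-stretched cells at 1 h, was -0.18 to -0.05 in stretched libraries at 1 h. It was 0.51 to 0.54 in those at 6 h. Single non-stretched libraries lay at -0.05 to 0.06 at 1 h and at 0.06 to 0.18 at 6 h. The ranges at 1 h thus touched, and at 6 h the stretched libraries lay above the non-stretched ones. Hmgcs1 was at 177 ± 13.4 CPM in non-stretched cells at 1 h.

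Of 15 lipid droplet and fatty acid genes tested 3 rose and none fell (median 0.30). Plin4, which coats lipid droplets (chr17:56100591-56109803), had the largest rise of the genes named by rule, from 5.93, 5.10, 5.92 and 4.73 CPM to 22.4, 18.8, 24.3 and 20.5 CPM. The groups did not overlap (2.0, SE 0.0971, edgeR adjusted p 1.26e-06), and the stretched cells at 3 h were still at 6.24 ± 0.892 CPM. The desaturase Scd2 rose by 0.83. Fabp3, a fatty acid binding protein, rose by 0.71, but its groups overlapped, 37.3% of its 31-base words are shared with other genes, and its call was lost without the experiment term (edgeR adjusted p 0.0503). The fatty acid synthase Fasn had a log2 fold change of 0.55 with overlapping groups.

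**Figure D3:**
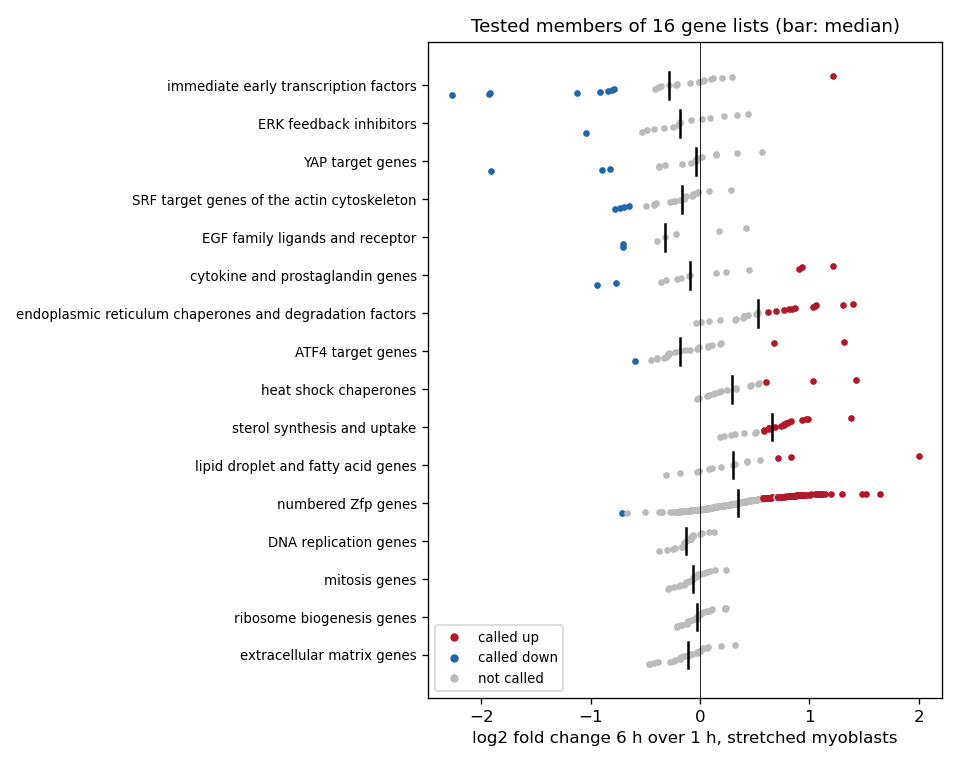
Log2 fold change from 1 h to 6 h in stretched myoblasts (x axis) for each tested member of 16 gene lists (y axis); a point is a gene, red called up, blue called down, grey not called, and the black bar is the median of the list. Sterol genes (median 0.66) and ER genes (0.53) lie to the right of 0, immediate early genes (-0.28) to the left, and the lists of DNA replication, mitosis, ribosome biogenesis and extracellular matrix hold no called gene.

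Genes named Zfp and a number, most of which encode DNA-binding zinc finger proteins, made up 73 of the 594 rises. Of 343 such symbols 301 were tested, 73 were upregulated and 1 was downregulated (Zfp580, -0.71, named after its value was seen), with a median log2 fold change of 0.35. In non-stretched cells none rose, 1 fell and the median was 0.04. In the interaction 58 of 310 were called up and none down, against 2.35% and 0.634% of all genes tested there. The 73 rises ranged from 0.58 to 1.65. Reads shared among such paralogs are divided by the quantification, so single members are less certain than the group.

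Zfp866 (chr8:69761326-69791178) was at 6.07, 7.44, 6.46 and 5.84 CPM at 1 h and at 18.9, 18.4, 18.4 and 18.2 CPM at 6 h (1.52, SE 0.0662, edgeR adjusted p 6.66e-07). It was at 18.4 ± 1.59 CPM in non-stretched cells at 1 h and at 18.5 ± 1.22 CPM in stretched cells at 3 h, so the stretched libraries at 1 h were the low ones. Zfp658 went from 1.64, 2.09, 1.79 and 1.86 CPM to 5.54, 4.52, 5.36 and 5.09 CPM (1.48). Among the other members with the largest changes were Zfp493 (1.65), Zfp108 (1.30), Zfp235 (1.2), Zfp87 (1.14), Zfp109 (1.12) and Zfp60 (1.12), of which Zfp493 was at 0.286 to 0.440 CPM at 1 h. Over the 301 genes the median level relative to non-stretched cells at 1 h was -0.20 to -0.17 in the stretched libraries at 1 h, 0.05 to 0.14 at 6 h and 0.02 to 0.06 in non-stretched cells at 6 h.

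Neat1 (chr19:5824708-5845478), the long noncoding RNA that builds paraspeckles, was also low in stretched cells at 1 h. It was at 55.0, 40.3, 30.0 and 33.8 CPM at 1 h and at 121, 190, 168 and 126 CPM at 6 h (1.96, SE 0.174, edgeR adjusted p 3.49e-05), against 140 ± 41.5 and 135 ± 26.2 CPM in non-stretched cells at the 2 times. The 4 stretched libraries at 1 h lay below those at 6 h and below both means. Of 9 long noncoding RNAs tested 2 rose, Neat1 and Miat (1.1), which was at 0.473 to 0.995 CPM at 1 h and lost its call without replicate 9 or 10 at 1 h (edgeR adjusted p 0.0574 and 0.0781). Malat1, at 454, 700, 398 and 331 CPM at 1 h and 1010, 438, 505 and 398 CPM at 6 h, overlapped between the groups.

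Among SR proteins and their kinases 1 of 16 was downregulated and none rose (median 0.07), 6.25% against 5.57% of all genes tested. Srsf5, a splicing regulator, was at 252, 244, 246 and 256 CPM at 1 h and 102, 155, 106 and 138 CPM at 6 h (-0.99, SE 0.118, edgeR adjusted p 0.000192). Replicates 7 and 9, the highest for the ER genes, were the lowest for Srsf5. It was at 277 CPM in stretched cells at 3 h and at 203 CPM in non-stretched cells at 6 h. In the interaction 1 of the 16 was called up and 1 down, Srsf5 (-0.80), 12.5% against 2.98% of all genes tested there. Rsrp1, which encodes a protein rich in arginine and serine, rose from between 35.7 and 40.4 CPM to between 90.9 and 126 CPM (1.54).

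Other large rises were those of Ngfr, the low-affinity nerve growth factor receptor, from 11.1, 12.6, 11 and 11.5 CPM to 32.4, 34.8, 31 and 31.6 CPM (1.5, SE 0.0464, edgeR adjusted p 1.80e-07), Gpnmb, a membrane glycoprotein (1.54), Kbtbd8 (1.5) and Kbtbd11 (1.48), of the kelch repeat and BTB domain family, and Prr9 (1.62), which was at 1.30 to 2.12 CPM at 1 h. Other large falls were those of Edn1, the peptide endothelin 1, from between 2.82 and 3.48 CPM to between 0.891 and 1.30 CPM (-1.44), 2010300F17Rik (-1.62), Fam167a (-1.14) and Frat2 (-1.1), a binding protein of GSK3. All of these groups were free of overlap, which the rule for naming them required.

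Secreted signals moved both ways. Of 14 cytokine and prostaglandin genes tested 3 rose, the monocyte attractants Ccl7 (1.22) and Ccl2 (0.91) and the chemokine Cxcl12 (0.93), and 2 fell, the cytokine Lif (-0.94) and the prostaglandin synthase Ptgs2 (-0.77), with a median of -0.10. Ccl2 was at 16.3, 16.5, 16.9 and 15.2 CPM at 1 h and at 33.5, 31.1, 31.8 and 25.6 CPM at 6 h. Ptgs2 was at 171, 183, 211 and 173 CPM at 1 h and at 113, 99.5, 117 and 102 CPM at 6 h. In both genes the groups were apart. In non-stretched cells edgeR called none of the 14 (median 0.01, highest value 0.50). There 8 had an unadjusted p under 0.05, against 16.3% of all genes tested. In the interaction Ccl7 and Cxcl12 were called up and Lif and Ptgs2 down, 28.6% of the 14 against 2.98% of all genes tested. The rise of Ccl2 was not called there.

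Of 20 myogenic factors and Id inhibitors tested 2 rose and none fell (median -0.01): Myf5, a determination factor of myoblasts, from 39.0, 38.5, 33.6 and 33.7 CPM to 68.0, 61.8, 68.7 and 61.1 CPM (0.85, SE 0.0554, edgeR adjusted p 6.50e-06), and the bHLH repressor Msc (0.80). Their differences in the interaction were 0.52 and 0.58, both under the unrounded limit. Of 17 genes of TGF-beta and BMP feedback, the activin antagonist Fst fell (-0.61, not called without replicate 7 or 9 at 6 h) and none rose (median -0.14). This is 1 of 17, 5.88% against 5.57% of all genes tested. Of 19 clock genes Bhlhe41 rose (0.78) and Cry2 fell (-0.60, not called without replicate 9 at 1 h or replicate 7 at 6 h), with a median of 0.01. Of 27 glycolysis and hypoxia genes Ankrd37 rose (0.63, not called without replicate 9 at 1 h) and Txnip (-0.96) and Adm (-0.74) fell (median 0.12). Adm was at 0.122 to 0.352 CPM and was not called by DESeq2 (adjusted p 0.165).

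Growth and matrix genes stayed under the limits. No gene was called by edgeR among 25 of DNA replication (median -0.13), 25 of mitosis (-0.06), 30 of ribosome biogenesis (-0.03) and 27 of the extracellular matrix (-0.11). Pcna, the DNA polymerase clamp, was at 280 ± 6.4 CPM at 1 h and 268 ± 7.97 CPM at 6 h. In 13 of the 25 replication genes the libraries at 6 h all lay below those at 1 h (17.7% of all genes tested), with values under the fold-change limit. At an unadjusted p under 0.05 there were 19, 11, 13 and 14 genes in these 4 lists, where 47.5% of all genes tested reached it, and DESeq2 called none either. Of these, 17, 9, 9 and 13 had negative values. In non-stretched cells the medians of the 4 lists were -0.04, 0.05, -0.04 and -0.11. In the interaction they were -0.09, -0.13, 0.01 and 0.06.

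**Figure D4:**
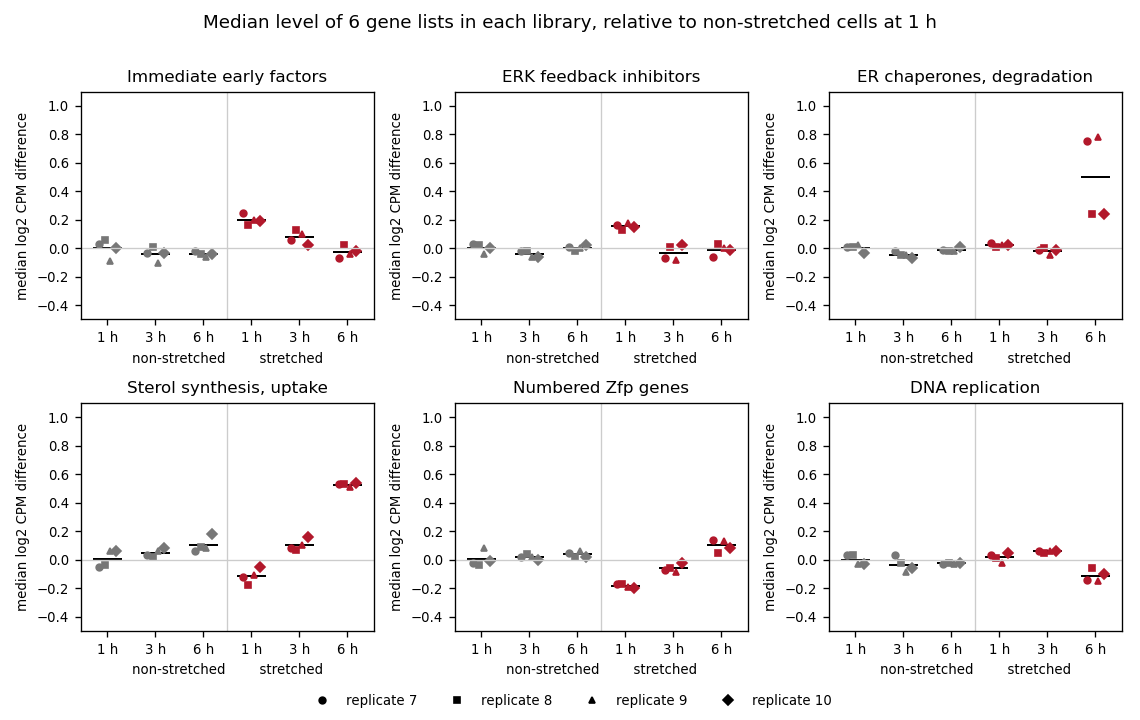
Median level of 6 gene lists in each library (y axis: median over tested members of log2 CPM minus their mean in non-stretched cells at 1 h), by group (x axis: 1 h, 3 h and 6 h, non-stretched in grey, stretched in red); symbols mark the replicate and bars the mean of 4. ER genes stay near 0 until 6 h and then split into 0.75 and 0.78 against 0.24 and 0.24, sterol genes reach 0.51 to 0.54 at 6 h, and Zfp genes are low in stretched cells at 1 h.

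The 3 h libraries place the changes in time, as a description without a test. For each called gene the share of the log2 change from 1 h to 6 h that was reached at 3 h was taken from the group means. Its median was 31.9% for the 594 upregulated genes (quartiles 4.87% and 62.4%) and 39.6% for the 236 downregulated ones (4.13% and 73.8%). It was 85.8% for the 5 called cytokine and prostaglandin genes and 74.3% for the 9 called immediate early genes. Of the latter Fos (106%) and Egr1 (97.5%) were at 3 h near their 6 h level, while Nr4a3 (26.0%) and Egr2 (18.7%) were not. Dusp1 (111%) and Btg2 (101%) were also near it. Ctgf had reached 58.1%. The 74 called Zfp genes had a median of 58.7%, and Zfp866 had reached 99.7%.

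The 17 called sterol genes had a median of 35.2%, below that of the called immediate early genes and near the 31.9% of all 594 upregulated genes. The 11 called ER genes were at 3 h all below their level at 1 h, with a median of -15.7%. Srsf5, which fell from 1 h to 6 h, was at 3 h above its level at 1 h (-15.0%). Plin4 had reached 9.63% and Fam167a 7.75%. Edn1 was at 3.75 ± 0.784 CPM at 3 h, above its level at 1 h (-18.5%). Relative to non-stretched cells of the same time, the 594 upregulated genes went from a median log2 difference of -0.20 at 1 h through -0.08 at 3 h to 0.26 at 6 h, and the 236 downregulated genes from 0.13 through 0.01 to -0.23. In 265 of the 594 (44.6%) and 101 of the 236 (42.8%) the difference to non-stretched cells was larger at 1 h than at 6 h. The calls hold genes that differed from non-stretched cells at 1 h and came back to their level, such as Zfp866, Neat1, Fos and Dusp1, and genes that left it by 6 h, such as Hspa5, Plin4 and Srsf5. These differences use the libraries that made the calls and are a description.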

How the data were processed

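RNA of 48 C2C12 libraries was sequenced, of which the 24 of myoblasts are in the table used here. Per the labels and the methods of the study, the authors aligned the reads to mm10 with STAR, and quantified genes with Salmon. The deposited table holds counts, whole and not normalized, of 47480 gene symbols in each library. Salmon divides reads shared by genes, so paralogs are uncertain. No column lacked a sample (0). One stretched library at 1 h (replicate 9) carries the code B231 in its title and B31 in the table, and was taken as B31.

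Genes with low counts were removed (filterByExpr), libraries scaled with TMM and groups compared with edgeR 4.0.16 (quasi-likelihood, experiment as block) in R 4.3.3, with Benjamini-Hochberg adjustment over all genes tested. SEs are the fold change divided by the root of the F statistic. The interaction used 16 libraries. DESeq2 1.42.0 with its own size factors, RLE scaling, other filters, all 24 libraries in 1 model, no experiment term, a replicate block, glmTreat, no fold-change limit and leaving out each library were alternatives. Scripts were tested on simulated data. Named genes are the 10 largest rises and 10 largest falls among calls whose mean count reached 100 and whose groups did not overlap, 5 each way of the interaction, and for each list up to 8 called and 4 uncalled members; Egr2, Kdr, Pdia6 and Zfp580 fall outside that rule and were chosen after their values were seen. The members and lists were chosen with earlier results of these data known. Deviations of same-numbered libraries correlated at -0.169 to 0.198 between the stretched groups and at 0.0723 to 0.331 between the non-stretched groups. Since not every pair exceeded 0.1 in either, numbers were not taken as pairs. Library pairs within a group differed beyond counting noise (chi-square per degree of freedom of at least 5.36). Coordinates are GENCODE vM21 (mm10), or RefSeq for Ctgf. Levels of lists, the share reached at 3 h and differences within experiments used log2(CPM + 0.5). The differentiated cells were not analysed here, and results of some genes are not reported here.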

Additional observations from a re-analysis of the deposited data

Results flagged for a closer look

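The change from 1 h to 6 h differed between stretched and non-stretched myoblasts for 64 of the 92 genes examined, by edgeR's test of the interaction, against 2.98% of all genes tested. Most of the 92 were chosen because they were called in stretched cells or in the interaction itself, so the high share follows from the choice. The values are log2 differences, the change in stretched cells minus that in non-stretched cells. Immediate early genes gave -2.10 for Fosb, -2.10 for Fos, -1.94 for Egr1, -1.07 for Nr4a1, -0.76 for Ier3, -0.78 for Csrnp1, -0.78 for Ier2, -0.80 for Egr2 and 1.1 for Nr4a3, so that Nr4a3 was the exception in sign. Genes of signalling and of secreted factors gave -0.97 for Dusp1, -0.94 for Ppp1r15a, -1.1 for Ctgf, -1.07 for Cyr61, -0.78 for Ankrd1, -1.15 for Edn1, -0.89 for Lif, -0.69 for Ptgs2, -0.64 for Fst, 0.77 for Ccl7 and 0.71 for Cxcl12. Chaperones gave 1.38 for Sdf2l1, 1.1 for Herpud1, 1.08 for Hspa5, 1.02 for Creld2, 1.00 for Syvn1, 0.82 for Hyou1, 0.82 for Dnajc3, 0.81 for Dnajb9, 1.29 for Hspa1b, 0.92 for Hsph1 and 0.61 for Hspa1a, and the stress genes 1.28 for Ddit3 and 0.73 for Ddit4. Sterol and lipid genes gave 1.22 for Mvd, 0.95 for Hmgcs1, 0.84 for Insig1, 0.77 for Msmo1, 0.76 for Idi1, 0.74 for Stard4, 0.74 for Sc5d, 0.67 for Cyp51, 1.51 for Plin4, 0.62 for Scd2 and 0.63 for Fabp3. Zinc finger genes gave 1.59 for Zfp493, 1.51 for Zfp866, 1.41 for Zfp658, 1.41 for Zfp108, 1.08 for Zfp87, 1.04 for Zfp235, 0.97 for Zfp60 and 0.92 for Zfp109. The remaining genes gave 2.01 for Neat1, 1.91 for Prr9, 1.38 for Rsrp1, 1.34 for Kbtbd8, 1.13 for Kbtbd11, 1.1 for Ngfr, 0.92 for Gpnmb, 0.64 for Bhlhe41, -0.98 for 2010300F17Rik, -0.94 for Fam167a, -0.86 for Frat2 and -0.80 for Srsf5.

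In 6 of 184 groups of 4 stretched libraries 1 library lay far from the other 3 by Dixon's criterion, which chance gives in about 1 of 20 groups. These were Kbtbd8 at 6 h (replicate 7, 11.2 CPM), Zfp109 at 6 h (replicate 8, 2.86 CPM), Adm at 6 h (replicate 8, 0.122 CPM), Tagln at 1 h (replicate 9, 90.9 CPM), Creld2 at 1 h (replicate 7, 53.2 CPM) and Ddit3 at 1 h (replicate 9, 13.4 CPM).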

How the results depend on the processing

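In the stretched comparison DESeq2, RLE scaling, other filters, all 24 libraries in 1 model, no experiment term and the removal of the 2 ribosomal RNA symbols (chosen after the library shares were seen) kept both counts within 1.5 times. Testing against the fold-change limit gave 116 rises and 36 falls, and no fold-change limit gave 3055 and 2667. Leaving out each library in turn gave 472 to 663 rises and 193 to 278 falls. The replicate block, although the numbers were not taken as pairs, gave 556 rises and 210 falls.

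In non-stretched cells the counts were small and less stable. No filter gave 43 rises and 70 falls, no experiment term 2 and 8, all 24 libraries in 1 model 31 falls, no fold-change limit 188 and 168, and the test against the limit 0 and 0 (45 genes at an unadjusted p under 0.05; DESeq2 called 6 and 21 at the usual limits). Leaving out each library gave 2 to 15 rises and 7 to 41 falls, the fewest without replicate 7 and the most without replicate 9 at 1 h; the replicate block gave 9 and 26. As a hint from the data, replicate 10 of the stretched and replicates 8, 9 and 10 of the non-stretched libraries correlated more with their own number than with another. In the interaction, no filter gave 164 negative calls. The test against the limit gave 26 positive and 13 negative calls, and no fold-change limit 1782 and 1297. Leaving out each library gave 276 to 419 positive and 83 to 126 negative calls, and the replicate block 354 and 98. The cause of these differences was not tested, apart from the limits, which change the rule itself.

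Of 92 genes named or examined, 81 kept their call or lack of it under every alternative tried, 8 lost a call under at least 1 (Adm, Fabp3, Ankrd37, Cry2, Miat, Slc7a5, Hspa1a and Fst), 3 that were not called became called (Fasn, Hsp90b1 and Calr), and none changed sign. Depth limits genes with few counts: 406 of the 830 called genes had a mean under 100.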
